A study of Mus musculus with 8 samples.

Results

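To describe the baseline transcriptome of cultured mast cells, the 4 samples titled Scrambled were taken from the 8 samples of the series, and no comparison with the other 4 was made. Each sample is a bulk RNA-seq library of bone marrow–derived mast cells (BMMCs), obtained by keeping bone marrow of C57BL/6 mice in IL-3 for at least 4 wk, transfecting the cells with a scrambled gRNA-Cas9 ribonucleoprotein (RNP) and culturing them for 1 more wk. The scrambled guide has no intended target in the genome, so that all 4 cultures carry the genotype labelled *Zc3h12a* WT. The study's methods give alternative preparations of the RNPs and do not say which was used for each culture. No stimulus is named for the cultures. The labels number the libraries 1 to 4, which are called cultures 1 to 4 here. The study's methods call them independent biological replicates and name a correction for batch effects. The labels tie no number to an animal or a batch, so the spread given below is the spread among these libraries, in which culture and batch cannot be told apart. BMMCs are a primary culture that resembles immature mast cells, and bone marrow cells of other lineages can persist in it. The study's methods state that nearly all cells carried FcεRIα and c-Kit after 4 wk of culture.

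Mast cells are tissue-resident granulocytes of myeloid origin. They store proteases, biogenic amines and proteoglycan-bound mediators in secretory granules. They display IgE on the high-affinity receptor FcεRI, and need survival factors such as IL-3 in culture. Upon receptor crosslinking they degranulate and transcribe a wave of immediate early genes, cytokines and chemokines, whose mRNAs are mostly short-lived in the unstimulated state.

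The 4 libraries held 32119835, 33986762, 26008463 and 19610240 counts assigned to genes, over 24059 gene symbols. Of these symbols, 1843 (7.7%) were at 0 in every culture. Levels are given as counts per 1000000 (CPM) after scaling by edgeR's trimmed mean of M values (TMM), as mean ± SD over n = 4 cultures or as the values of cultures 1 to 4 in that order. CPM does not take gene length into account, so levels of different genes were compared as transcripts per 1000000 (TPM), for which counts were first divided by total exon length. A share of counts is a percentage of all counts of a library.

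A small number of symbols held much of the RNA. The most abundant symbol alone took 3.03% ± 0.227 of the counts, the 10 highest symbols of each culture took 11.1% ± 0.441, the 100 highest 27.6% ± 0.962 and the 1000 highest 60.4% ± 0.712. In cultures 1 to 4, 566, 570, 514 and 540 symbols were enough for 50% of the counts, and 4566, 4330, 4494 and 4789 for 90%. The curves of the 4 cultures thus lay close together, although their depths ranged from 19610240 to 33986762 counts. At a level of 1000 CPM or more, 84, 96, 107 and 97 symbols were counted in cultures 1 to 4, at 100 CPM or more 2004, 2177, 2067 and 1897, and at 10 CPM or more 8165, 7990, 8226 and 8382. Below that the cultures differed more, with 11388, 10884, 13078 and 13704 symbols at 1 CPM or more.

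**Figure D1:**
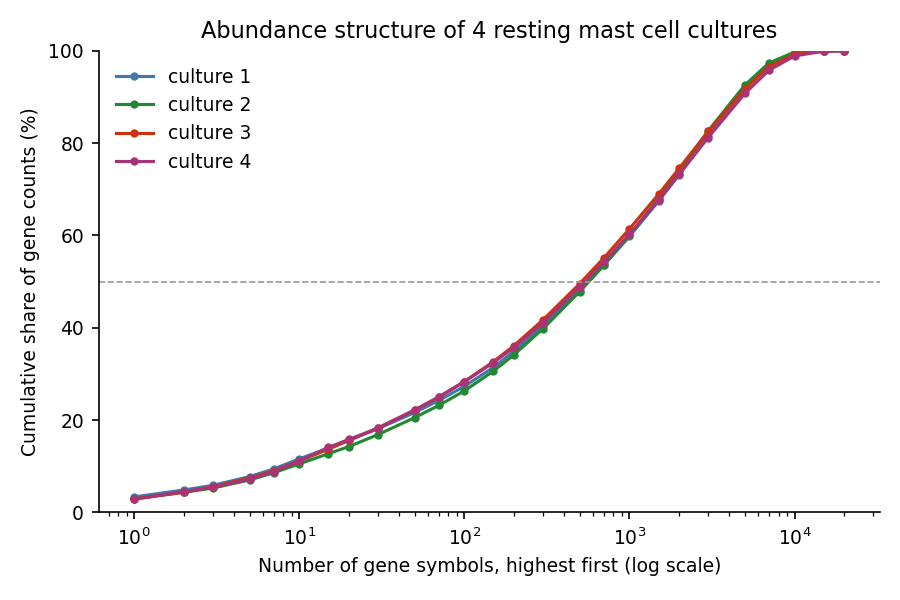
Cumulative share of counts (percent, y axis) held by the given number of symbols, highest first (log x axis), 1 line per culture. The 10 highest symbols held 10.5 to 11.6% of the counts and the 1000 highest 59.8 to 61.4%, so that the 4 lines nearly coincide.

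By mean level, 93 symbols at 1000 CPM or more, 0.387% of all symbols, held 26.6% ± 0.986 of the counts. The 1963 symbols between 100 and 1000 CPM held the largest share, 47.3% ± 1.18, and the 6209 symbols between 10 and 100 CPM held 24.3% ± 0.744. The 4351 symbols between 1 and 10 CPM together held 1.57% ± 0.448. In these libraries, which were enriched for poly(A) RNA, nearly all counts came from mRNA. Symbols annotated as protein-coding in GENCODE held 98.4% ± 0.215 of the counts, and long non-coding RNAs 0.693%. By CPM, the non-coding RNAs listed were led by *Malat1*, a nuclear transcript (1349.7 ± 482 CPM), and *Xist*, which coats the inactive X chromosome (1088 ± 241 CPM), followed by *Neat1*, the scaffold of paraspeckles (496 ± 407 CPM). *Xist* was at 1212, 840.0, 937 and 1361 CPM in cultures 1 to 4, whereas the Y-linked *Ddx3y* was at 1 count in culture 1 and at 0 in the other cultures, and *Kdm5d* and *Uty* were at 0 in all 4.

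All 4 markers that define mast cells were among the 93 symbols at a mean of 1000 CPM or more. *Cpa3*, the carboxypeptidase of the secretory granule, was the highest symbol in each of the 4 cultures, at 32739.5, 30564, 30297 and 27682 CPM. *Kit*, the receptor of stem cell factor, was at 3561, 3448, 2776 and 3679 CPM. *Fcer1a*, the IgE-binding chain of FcεRI, was at 2621, 2626, 2103 and 2223 CPM, and *Ms4a2*, its signal-amplifying beta chain, at 1431, 1032, 1685 and 1623 CPM. None of the 4 varied by 2 times among the cultures, beside 13 (14%) of the 93 symbols at this level, and for 4 genes a count of 0 is near that share. The widest was *Ms4a2*, with 1.63 times between its highest and lowest culture. *Cpa3* lies on chromosome 3 (20269774 to 20296362 in GRCm39). Per length, it stood at 74867 ± 5610.1 TPM and *Fcer1a* at 9483 ± 1238 TPM, and together the 4 markers made up 8.78% ± 0.664 of all TPM. In a bulk library, fewer cells of a type and less RNA of a gene per cell cannot be told apart.

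The promoter of *Cpa3* is shown because this gene gave the largest single share of the RNA, and because it holds a TATA box, a feature that few promoters of well-expressed symbols had. The RefSeq sequence (GRCm38.p6, chr3:20242132-20242431, minus strand) runs from 250 bases before to 50 bases after the annotated start, written 5′ to 3′ on the strand of the gene. The capitals mark AGATAA, letters of the kind bound by GATA factors, whose first base lies at position -46, and TATAAA, whose first base lies at position -31.
Cpa3: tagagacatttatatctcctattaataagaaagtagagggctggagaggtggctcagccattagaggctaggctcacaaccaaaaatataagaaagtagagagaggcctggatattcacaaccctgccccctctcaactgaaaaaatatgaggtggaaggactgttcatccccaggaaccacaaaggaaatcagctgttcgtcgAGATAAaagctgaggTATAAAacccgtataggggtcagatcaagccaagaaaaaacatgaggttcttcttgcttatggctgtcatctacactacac
TATAAA, searched on the strand of the gene, was found for 9.77% of the 27025 symbols with a promoter in the RefSeq table, and for 4.74% of the 6752 of them at a mean of 10 CPM or more. AGATAA, searched on both strands, was found for 12.7% and 7.15%. A match describes letters in this window and is not a measured binding site. *Gata2* and *Gata1*, which encode the GATA factors of mast cells, were at 1924 ± 231 and 194 ± 37.1 CPM.

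The 20 symbols with the highest mean CPM together held 15.2% of the counts and were of a few kinds. Genes of granule contents and amine synthesis were, besides *Cpa3*, the chymase *Cma1* (8449 ± 966 CPM), the tryptase *Tpsb2* (6598 ± 1459 CPM), *Tph1*, the rate-limiting enzyme of serotonin synthesis in non-neuronal cells (7430.1 ± 528 CPM), and *Srgn*, the proteoglycan core that retains proteases in the granule (3864 ± 540.5 CPM). Mitochondrially encoded mRNAs gave *COX1* (14968 ± 937 CPM), *CYTB*, *ND1*, *ND5* and *ND2*. Cytokine receptors gave *Csf2rb2* and *Csf2rb*, the beta chains of the IL-3 receptor (7713 ± 727 and 4066 ± 695 CPM), the IL-33 receptor *Il1rl1* (4556 ± 1091 CPM) and *Kit* (3366 ± 405 CPM). The remaining symbols were the elongation factor *Eef1a1* (8533 ± 1104 CPM), the actin genes' leading member *Actb* (8239 ± 983 CPM), the actin-severing protein *Scin* (2939 ± 315 CPM), the prion protein gene *Prnp* (4562 ± 607 CPM), the steroidogenic enzyme *Cyp11a1* (3272 ± 415 CPM), and the immediate early transcription factor *Egr1* (6652 ± 4889 CPM). Of the 20, *Egr1* had the largest SD relative to its mean, and its values by culture are given with the immediate early genes. *Csf2rb* and *Csf2rb2* are near-identical neighbours, so that the split of reads between them is uncertain.

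Ranked per length, the order was *Cpa3*, *COX1*, *CYTB*, *ND1*, *Cma1*, *ND2*, *ND5*, *Tpsb2*, *Actb* and *Fcer1a*. *Cpa3* lay at 82943, 74379.9, 70775 and 71371 TPM in the 4 cultures and *COX1* at 38328, 34972, 36955 and 42911 TPM, with no overlap between their ranges. The only other neighbours in this order whose ranges did not overlap were *Cma1* and *ND2*, at 30673 ± 4268 and 13468 ± 1819 TPM, and the ranges of all other neighbours among the 10 overlapped, so that their order is not resolved by these cultures. Of the 20 highest symbols by CPM, 13 were also among the 20 highest by TPM.

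Among the granule proteases, 8 of 16 listed symbols reached 10 CPM and together held 5.27, 4.71, 4.6 and 4.97% of the counts in cultures 1 to 4. *Tpsg1*, a membrane-anchored tryptase, was at 855, 891, 956 and 836 CPM and had nearly the same level in each culture. By contrast, *Ctsg*, the cathepsin G gene, was at 35.4, 96.8, 122 and 11.9 CPM, a range of 10.2 times with culture 3 highest and culture 4 lowest. *Gzmb*, which encodes granzyme B, was at 1176, 1354, 3153 and 2321 CPM and was higher in cultures 3 and 4 than in cultures 1 and 2. *Mcpt4* and *Mcpt2*, the proteases of connective tissue-type and mucosal-type mast cells, stayed low at 4.13 ± 1.46 and 5.68 ± 2.36 CPM. Proteases of this family share sequence, and how reads that fit several of them were counted is not given in the sources used here, so that the levels of single members are uncertain. Of the granule matrix and amine genes, 9 of 13 reached 10 CPM, and *Hdc*, the histidine decarboxylase that makes histamine, ranged most, at 154, 78.9, 251 and 96.5 CPM. *Slc18a2*, the vesicular transporter that loads amines into granules, was at 1027, 758, 787 and 1154 CPM.

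Receptors and signaling genes were expressed throughout. Of 34 mast cell receptors, 29 reached 10 CPM and held 3.34, 2.75, 2.75 and 3.27% of the counts, and 5 of them varied by 2 times or more, a share near that of all symbols at this level (17.6%, below). Without culture 2 or culture 4, 2 of them did. The inhibitory receptor *Cd200r1* was at 46.1, 26.2, 49.1 and 77.8 CPM, while its relative *Cd200r3* was steady at 512, 459, 504 and 522 CPM. Of 22 IgE signaling kinases and adaptors, 21 reached 10 CPM, led by CPM by the adaptors *Lat2* (769 ± 53.7 CPM) and *Lcp2* (743 ± 98 CPM) and the kinase *Prkcb* (682 ± 36.9 CPM). *Alox5*, which starts leukotriene synthesis, led the eicosanoid genes at 2934, 2834, 2826 and 2437 CPM. The transcription factors were led by *Gata2* and by *Id2*, an inhibitor of helix-loop-helix factors (1158 ± 222 CPM), and the one with the widest range was *Cebpb*, at 17.5, 26.7, 165 and 104 CPM in cultures 1 to 4.

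Housekeeping classes took a further share. Mitochondrially encoded mRNAs held 4.14, 3.93, 4.67 and 4.6% of the counts, and the 79 cytosolic ribosomal protein genes 4.43, 4.28, 3.66 and 3.38%. The mitochondrial share was higher in cultures 3 and 4 than in cultures 1 and 2, and the ribosomal protein share was lower in them. Translation factors held 2.42% ± 0.204 and actin cytoskeleton genes 2.43% ± 0.232. Per length, mitochondrially encoded mRNAs made up 13.4% ± 1.04 of all TPM, granule proteases 12.6% ± 0.83, ribosomal proteins 6.73% ± 0.801, and immediate early genes 2.78% ± 1.5. The granule proteases and the mitochondrial mRNAs thus had similar shares, whereas the immediate early genes had a smaller share and the largest SD of these classes.

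**Figure D2:**
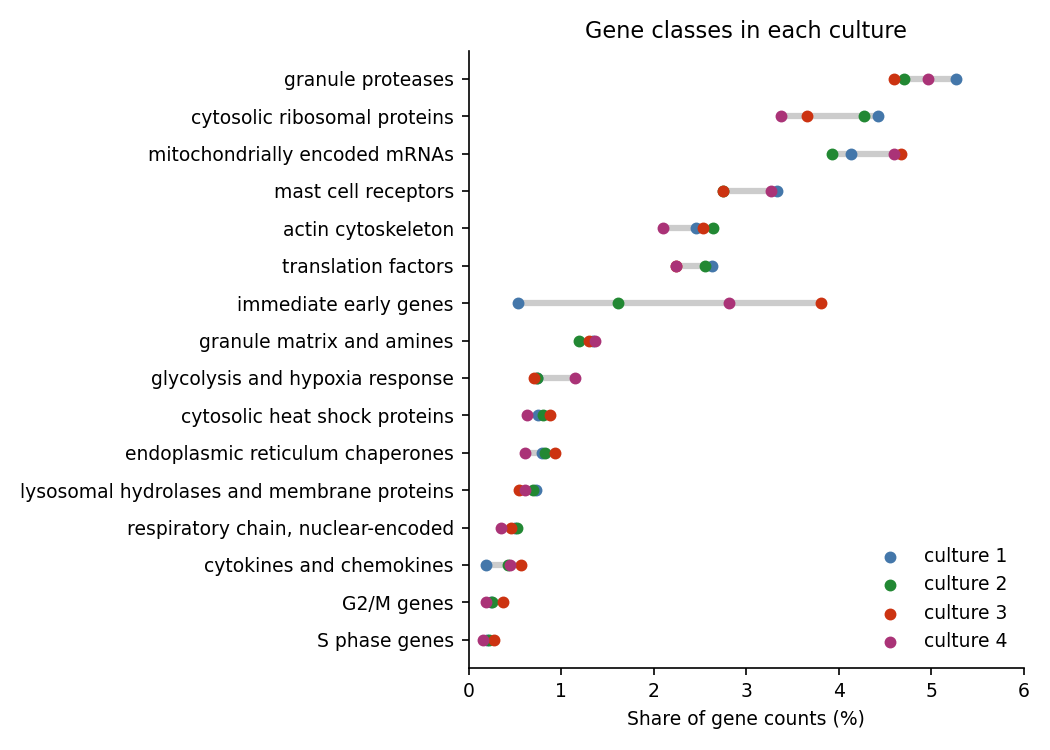
Share of counts (percent) of a selection of gene classes, which are not all those with the largest shares, with 1 point per culture and a grey line over their range. Granule proteases lay at 4.6 to 5.27%, whereas immediate early genes ranged from 0.532% in culture 1 to 3.81% in culture 3.

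The mitochondrial mRNAs were not evenly represented. The 6 genes *COX2*, *COX3*, *ATP6*, *ATP8*, *ND3* and *ND4L* were at mean levels of 1.06 to 17.3 CPM, and the other 7, including *ND6*, at 45.3 to 14968 CPM. In GRCm39, 5 of the 6 have a copy identical over the whole gene, and *ND3* one identical over 345 of its 348 bases, within a nuclear stretch on chromosome 1 (24651485 to 24654646). At its edge lies an identical copy of 876 of the 1378 bases of *ND4* (24650616 to 24651491), which was at 1991 CPM on average. *COX3* was at 9.73, 10.6, 9.27 and 8.18 CPM in cultures 1 to 4, and *CYTB* at 8048, 8468, 10971 and 8976 CPM. How reads that fit both places were counted is not given in the sources used here, and its part in these low levels was not tested.

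Markers of other blood and stromal lineages were mostly near 0. Of the neutrophil, eosinophil, B and plasma cell, T and NK cell, and stromal markers with a symbol in the counts, none reached a mean of 10 CPM. Of 15 neutrophil, 10 eosinophil, 13 B and plasma cell, and 15 T and NK cell markers named, 9, 5, 12 and 12 had such a symbol. The others were not measured. Summed levels in the 4 cultures ranged from 1.13 to 2.1 CPM for the 9 neutrophil genes and from 4.02 to 32.3 CPM for 12 stromal genes. Several genes that also serve as markers of other lineages were well expressed. *Itga2b*, the platelet integrin chain CD41, was at 1937, 1738, 1316 and 1502 CPM, and *Gp1ba*, a chain of the platelet von Willebrand factor receptor, at 468, 441, 1062 and 719 CPM. The progenitor marker *Cd34* was at 529.9, 622, 527 and 453 CPM, a level that varied by 1.37 times. *Vcan*, a proteoglycan listed with the monocyte markers, was at 408, 226, 227 and 429 CPM, and the chemokine receptor *Cx3cr1* at 191, 104, 221 and 312 CPM, while *Lyz2* and *Adgre1*, the defining macrophage genes, were at 4.78 and 3.05 CPM on average. Of the 10 basophil markers, 5 reached 10 CPM, among them *Cyp11a1*, *Cd200r3* and *Gzmb*, which mast cells share, whereas the basophil protease genes *Mcpt8* and *Prss34* were at 3.93 and 1.41 CPM.

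To describe how the cultures differed, the spread of each of the 8265 symbols with a mean of 10 CPM or more was measured as the SD of log2 CPM and as the ratio of the highest to the lowest culture. The median SD was 0.27, which compares with a median SD expected from counting alone of 0.0499 at 10 to 100 CPM and 0.0218 at 100 to 1000 CPM. The highest culture was at 2 times the lowest or more for 1453 symbols (17.6%), at 4 times or more for 138 (1.67%), and within 1.2 times for 756 (9.15%). Past 2 times were 1296 of 8245 symbols without culture 1 and 769 of 8321 without culture 2. Without culture 3, 1107 of 8262 were, and without culture 4, 666 of 8140. Counts of list members with a culture left out are to be read beside these. Past 4 times were 83 symbols without culture 2 and 66 without culture 4. When any one culture was left out, 1303 to 1919 symbols were within 1.2 times. Spread was larger at low levels: the median SD was 0.71 at 1 to 10 CPM, 0.28 at 10 to 100 CPM, 0.24 at 100 to 1000 CPM and 0.23 at 1000 CPM or more.

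Of the 6 pairs of cultures, 1 and 2 were the most alike and 2 and 4 the farthest apart. Cultures 1 and 2 differed by 2 times or more at 242 of the 8265 symbols, cultures 1 and 3 at 283, and cultures 1 and 4 at 357. Cultures 2 and 4 differed at 973 symbols, cultures 2 and 3 at 501, and cultures 3 and 4 at 344. Of the symbols past 2 times, 540 were highest in culture 4 (6.53% of the 8265), 512 were lowest in culture 4 (6.19%), 337 were highest in culture 3 (4.08%), and 187 were lowest in culture 1 (2.26%). The balance of cultures 2 and 4 depends on the scaling, since other scalings moved the median of all symbols by up to 0.15 on the log2 scale in culture 2 and by -0.14 in culture 4. With TMM scaling, the symbols that separated cultures 2 and 4 differed in length: the 439 highest in culture 4 and lowest in culture 2 had a median total exon length of 7993 bases, the 346 of the opposite order 5751 bases, and all 8265 symbols 6827 bases.

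**Figure D3:**
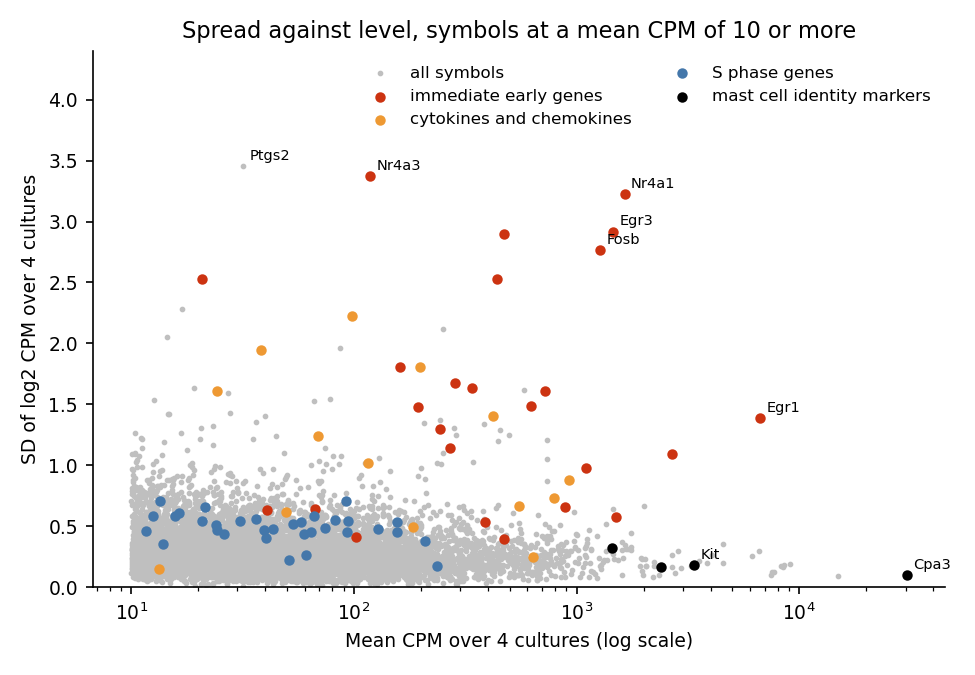
SD of log2 CPM over the 4 cultures (y axis) against mean CPM (log x axis), 1 point per symbol at a mean of 10 CPM or more, with immediate early genes, cytokines, S phase genes and mast cell identity markers in colour. The identity markers lie between 0.10 and 0.32, near or below the median of 0.27, and the immediate early genes reach 3.38.

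Of all gene lists, the largest median spread among the unstimulated cultures was that of the immediate early genes, transcription factors and feedback regulators that are transcribed without new protein synthesis upon a stimulus. Of 28 listed, 25 reached 10 CPM, 23 of these varied by 2 times or more and 18 by 4 times or more, beside 17.6% and 1.67% of all symbols at this level, and the median SD of the 25 was 1.48. Summed over the list, they were at 5184, 16468, 39787 and 27228 CPM in cultures 1 to 4, that is, 0.532, 1.62, 3.81 and 2.82% of the counts. In culture 3 their share exceeded the 2.9% of *Cpa3*, the highest single symbol. Culture 1 was the lowest for 22 of the 23, and the order from culture 1 through 2 and 4 to 3 was found for 13. Of the 1453 symbols past 2 times, 12.9% were lowest in culture 1 and 82 (5.64%) had this order. These 82 are 0.992% of all 8265 symbols at 10 CPM or more. The member of the 23 not lowest in culture 1 was *Myc*, at 309, 597, 387 and 252 CPM, which was highest in culture 2 and lowest in culture 4.

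The 3 genes of the NR4A family of orphan nuclear receptors had the widest ranges of the list, 281 times for *Nr4a3*, 178 times for *Nr4a1* and 107 times for *Nr4a2*. *Nr4a1* was at 24.5, 744, 4358 and 1454 CPM in cultures 1 to 4, which placed it at ranks 6064, 164, 16 and 58 by CPM. *Nr4a2* was at 11.1, 317, 1183 and 383 CPM, and *Nr4a3* at 1.52, 10.9, 425 and 36.4 CPM. For each of them culture 1 was lowest and culture 3 highest. The EGR family of zinc finger factors had the same order of cultures. *Egr1* was at 1382, 4413, 12723 and 8089 CPM and ranked 52, 13, 3 and 5, *Egr2* was at 17.9, 259.7, 955 and 519.8 CPM, and *Egr3* at 34.4, 684, 3376 and 1727 CPM.

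Members of the AP-1 family, whose products dimerize into one transcription factor, had narrower ranges than the NR4A family. *Fosb* was at 36.9, 897, 2413 and 1749 CPM, *Fos* at 104, 567, 991 and 1228 CPM and *Jun* at 104, 558, 1017 and 815 CPM. *Junb* was at 781, 2200.5, 4386 and 3371 CPM, and *Jund*, which is known for steady expression, had the narrowest range of the 25 at 1.83 times. *Fos* was highest in culture 4, and its order from culture 1 up to culture 4 was found for 6 of the 23. Among feedback regulators of this group, *Zfp36*, which encodes an mRNA-destabilizing protein, was at 55.5, 83.8, 448 and 554 CPM. *Dusp1*, a phosphatase that inactivates MAP kinases, was at 70.9, 107, 262 and 531 CPM, and *Ier3*, a survival-linked early gene, at 798, 1755, 1944 and 1534 CPM. These regulators were all lowest in culture 1, but *Zfp36* and *Dusp1* were highest in culture 4 and *Ier3* in culture 3.

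**Figure D4:**
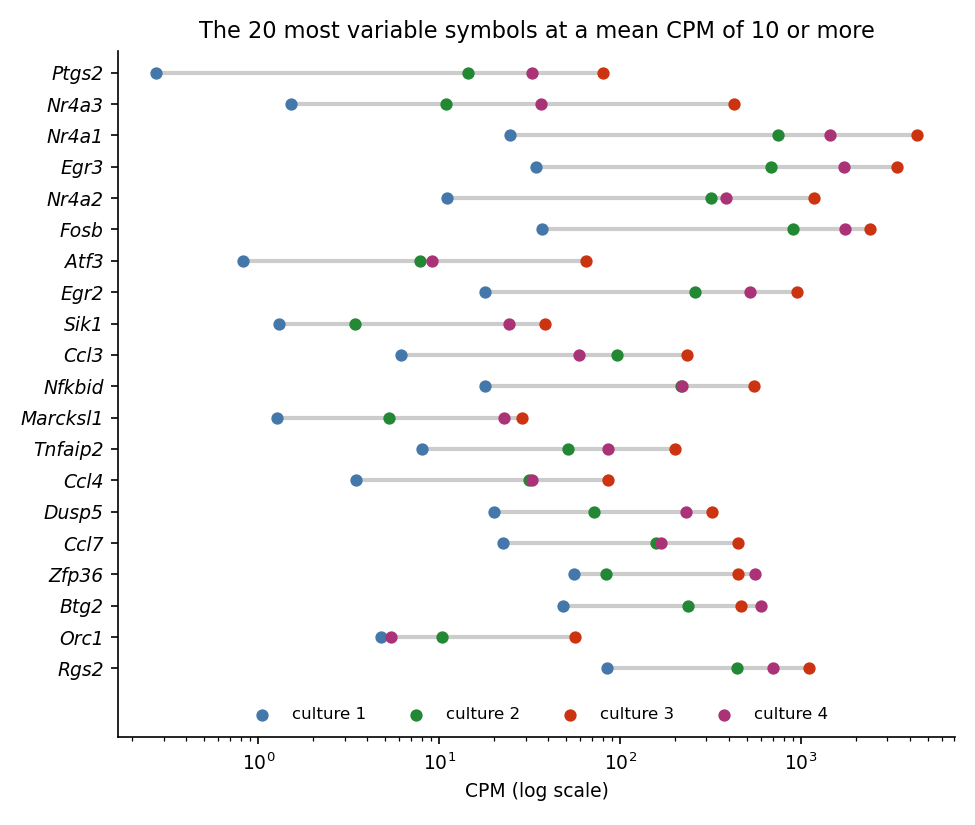
CPM (log x axis) of the 20 symbols with the largest SD of log2 CPM among those at a mean of 10 CPM or more, 1 point per culture and a grey line over their range. *Ptgs2* spans 0.273 CPM in culture 1 to 80.4 CPM in culture 3, and *Nr4a1* spans 24.5 to 4358 CPM.

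The promoters of *Nr4a1*, *Nr4a2*, *Nr4a3*, *Fos* and *Ptgs2* are shown because these genes differed widely among the cultures, from 11.8 times for *Fos* to 295 times for *Ptgs2*. All are RefSeq sequences of GRCm38.p6 from 250 bases before to 50 bases after the start, on the strand of the gene: *Nr4a1* at chr15:101266596-101266895, plus strand, *Nr4a2* at chr2:57123954-57124253, minus strand, *Nr4a3* at chr4:48045055-48045354, plus strand, *Fos* at chr12:85473640-85473939, plus strand and *Ptgs2* at chr1:150099781-150100080, plus strand. The capitals mark TGACG, the half-site of the cAMP response element, found on either strand (as CGTCA on the other), and TATAAA in the promoter of *Fos*.
Nr4a1: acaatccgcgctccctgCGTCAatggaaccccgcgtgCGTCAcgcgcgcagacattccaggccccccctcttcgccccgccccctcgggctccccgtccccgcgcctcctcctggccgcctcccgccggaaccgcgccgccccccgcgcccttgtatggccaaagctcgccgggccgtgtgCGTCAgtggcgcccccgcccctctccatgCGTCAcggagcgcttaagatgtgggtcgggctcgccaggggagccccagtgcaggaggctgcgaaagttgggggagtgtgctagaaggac
Nr4a2: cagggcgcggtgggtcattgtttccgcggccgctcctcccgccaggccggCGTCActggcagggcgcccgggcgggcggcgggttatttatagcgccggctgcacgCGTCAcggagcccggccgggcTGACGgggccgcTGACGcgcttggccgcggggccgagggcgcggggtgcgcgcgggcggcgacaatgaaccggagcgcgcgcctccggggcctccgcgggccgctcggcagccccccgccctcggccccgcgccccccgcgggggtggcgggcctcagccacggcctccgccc
Nr4a3: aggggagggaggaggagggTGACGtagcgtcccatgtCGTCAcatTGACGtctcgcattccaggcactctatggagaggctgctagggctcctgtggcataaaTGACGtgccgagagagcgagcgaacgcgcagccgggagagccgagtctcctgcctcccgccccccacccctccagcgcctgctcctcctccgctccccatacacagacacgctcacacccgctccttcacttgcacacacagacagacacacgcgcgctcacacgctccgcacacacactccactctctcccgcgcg
Fos: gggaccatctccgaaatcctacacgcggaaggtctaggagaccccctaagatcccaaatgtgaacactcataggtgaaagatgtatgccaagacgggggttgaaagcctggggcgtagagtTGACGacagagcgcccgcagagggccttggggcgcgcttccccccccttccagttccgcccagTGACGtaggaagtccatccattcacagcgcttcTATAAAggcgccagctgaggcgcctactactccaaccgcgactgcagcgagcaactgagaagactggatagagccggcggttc
Ptgs2: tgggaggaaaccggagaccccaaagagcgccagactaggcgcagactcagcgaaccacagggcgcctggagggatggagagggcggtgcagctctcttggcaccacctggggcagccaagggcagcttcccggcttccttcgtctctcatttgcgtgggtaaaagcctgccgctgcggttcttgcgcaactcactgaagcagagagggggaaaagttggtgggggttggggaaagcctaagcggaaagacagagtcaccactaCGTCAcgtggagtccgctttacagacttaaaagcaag
Each of the 3 NR4A promoters held 4 matches, with first bases at positions from -233 to -40. As many or more were found for 69 of the 27025 symbols with a promoter (0.255%). Among the 6752 of these at 10 CPM or more, they were found for 49 (0.726%). *Fos* held 2, at -129 and -66, besides TATAAA at -33, and *Ptgs2* held 1, at position 13 after the start. A match at one position or more was found for 6228 (23.05%) of all symbols, for 38.7% of those at 10 CPM or more, and for 12 of the 20 immediate early genes at 10 CPM or more that had a promoter in the table. The full palindrome TGACGTCA, which contains a half-site on each strand, was found for 2 of the 20 (*Btg2* and *Dusp1*). It was found for 2.03% of all symbols and for 3.7% of those at 10 CPM or more. The AP-1 letters TGACTCA were found for none of the 20, for 5.95% of all symbols and for 4.22% of those at 10 CPM or more. The CArG box of serum response factor was found for 3 of the 20 (*Dusp5*, *Egr2* and *Zfp36*). Its shares were 1.81% of all symbols and 1.57% of those at 10 CPM or more. These are descriptions of letters in a window of 300 bases, and sites farther away were not searched.

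*Ptgs2*, the inducible cyclooxygenase, had the largest SD of all 8265 symbols (3.45). It was at 0.273, 14.4, 80.4 and 32.4 CPM, and its level in culture 1 rested on 9 counts. By contrast, the constitutive enzyme *Ptgs1* was at 119, 73.3, 75.7 and 52.7 CPM. Of the 20 symbols with the largest SD, 5 remained when culture 1 was left out, so that most of this ranking rested on the low levels of culture 1. *Rgs2*, a regulator of G protein signaling, was at 84.6, 441, 1099.7 and 703 CPM, and *Sik1*, a salt-inducible kinase, at 1.3, 3.42, 38.6 and 24.4 CPM, both lowest in culture 1 and highest in culture 3. *Orc1*, a subunit of the origin recognition complex, was also among the 20 but with only culture 3 standing apart, at 4.76, 10.3, 56.3 and 5.42 CPM.

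Cytokines and chemokines also had wide ranges. Of 33 listed, 14 reached 10 CPM, 12 of these varied by 2 times or more and 7 by 4 times or more, beside 17.6% and 1.67% of all symbols, with a median SD of 0.95, and their sums were 1867, 4391, 5944 and 4341 CPM in cultures 1 to 4. The chemokine genes *Ccl3* and *Ccl4*, which recruit monocytes and lymphocytes, were at 6.12, 95.5, 233 and 59.3 and at 3.46, 31.2, 86.2 and 32.5 CPM. *Ccl7*, another monocyte chemoattractant, was at 22.4, 159, 446 and 169 CPM. All 3 were lowest in culture 1 and highest in culture 3. *Tnf*, a preformed and newly made mediator of mast cells, was at 88.4, 732, 622 and 240.2 CPM and was highest in culture 2. *Il13*, a type 2 cytokine, was at 3.55, 29.6, 46.9 and 16.7 CPM, whereas the neighbouring type 2 cytokine gene *Il4* was at 11.7, 13.5, 15.1 and 12.9 CPM with a range of only 1.29 times. *Lif*, of the IL-6 family, was at 336, 930.3, 1199 and 1232 CPM, and *Il6* itself was at 117, 232, 236 and 149 CPM. *Il4* and *Tgfb1* (1.42 times) were the only ones of the 14 below 2 times.

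Genes of NF-κB feedback were unequal in range. Of 14 at 10 CPM or more, 4 varied by 2 times or more, beside 17.6% of all symbols, and 2 did without culture 1. Of the 4, *Nfkbid*, an atypical inhibitor, was at 17.9, 217, 549 and 219.7 CPM, and *Tnfaip3*, which encodes the deubiquitinase A20, at 50.8, 69.3, 133 and 265 CPM, and the others were *Nfkbiz* and *Gadd45b*. The canonical feedback genes *Nfkbia* and *Nfkb1* had ranges of 1.17 and 1.2 times. The surface activation marker *Cd69* was at 107, 299, 654 and 754 CPM, lowest in culture 1 and highest in culture 4. The part of depth, batch or the low-level pattern described below in these differences was not tested. Without culture 1, 16 of the 25 immediate early genes and 7 of the 14 cytokines still varied by 2 times or more, with median SDs of 0.73 and 0.56.

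**Figure D5:**
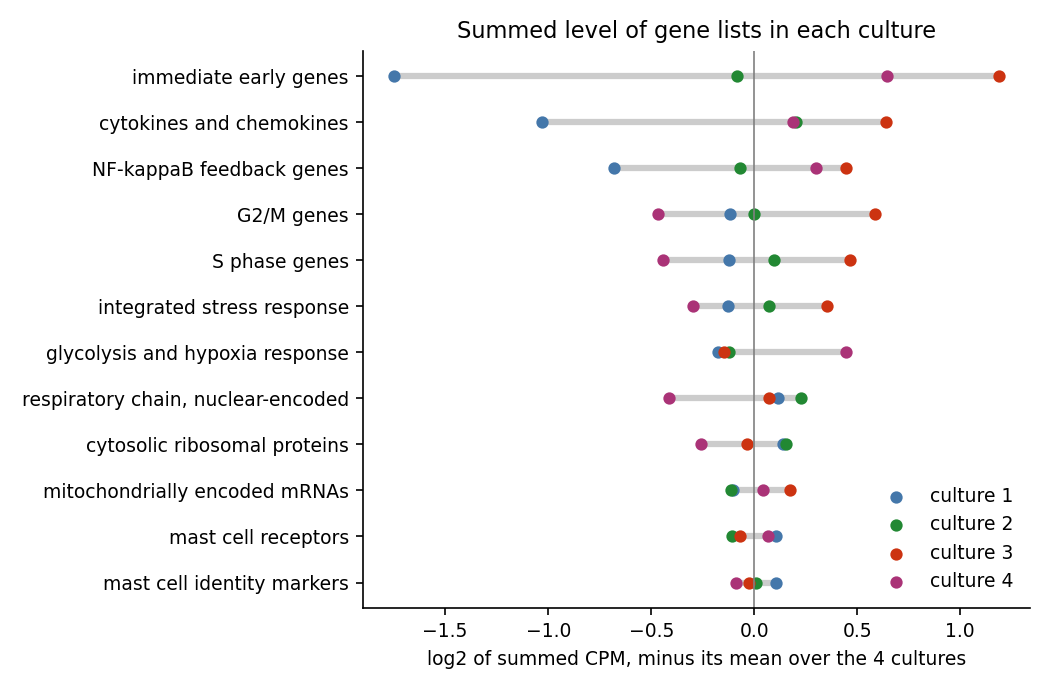
Summed level of each gene list in the 4 cultures, as log2 of the CPM sum minus its mean over the 4 cultures (x axis), 1 point per culture and a grey line over their range. The sum of the immediate early genes was 7.68 times as high in culture 3 as in culture 1, whereas the identity markers lay within 1.15 times.

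A second group of variable genes separated culture 4. Of 31 glycolysis and hypoxia response genes at 10 CPM or more, 14 varied by 2 times or more and 6 by 4 times or more, beside 17.6% and 1.67% of all symbols, and all 14 were highest in culture 4. Of all symbols, 6.53% varied by 2 times or more and were highest in culture 4. Their sums were 7224, 7489, 7355 and 11103 CPM, and culture 4 was highest under each of the 5 scalings used. *Pdk1*, the kinase that holds pyruvate dehydrogenase inactive, was at 10.3, 7.67, 14.2 and 60.9 CPM. *Bnip3*, a mitophagy receptor, was at 21.4, 15.8, 14.6 and 89.5 CPM, and *Ndrg1*, a hypoxia-responsive gene, at 73.5, 29.8, 62.3 and 185 CPM. Culture 4 was thus above the other 3 cultures for each of them. The glycolytic enzymes were unequal: *Gapdh* and *Ldha* ranged by 1.3 and 1.33 times. *Aldoa*, by contrast, was at 809, 851, 840.1 and 1509 CPM, and *Pgk1* ranged by more than 2 times. Without culture 4, 2 of the 31 still varied by 2 times or more, beside 666 of 8140 symbols. The 35 nuclear genes of the respiratory chain summed to 4917, 5313, 4763 and 3408 CPM, with culture 4 lowest, and 4 of them passed 2 times, beside 17.6% of all symbols. This count was 0 without culture 4, 1 without culture 2, 2 with library totals and 11 with TMM over all 8 samples. Culture 4 also had the fewest counts and the highest sums of olfactory receptor symbols, and the part of either in these differences was not tested.

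Cell cycle genes were highest in culture 3. Of 33 S phase genes at 10 CPM or more, 24 varied by 2 times or more, and of 40 G2/M genes, 26, beside 17.6% of all symbols. The S phase sums were 1935, 2250.1, 2905 and 1548 CPM and the G2/M sums 2381, 2578, 3871 and 1863 CPM in cultures 1 to 4. *Mki67*, the gene of the proliferation antigen Ki-67, was at 410.5, 503, 778 and 339 CPM. Culture 4 was lowest in all 3 series of values, and the counts rested on these 2 cultures. Without culture 3, 9 S phase and 6 G2/M genes varied by 2 times, beside 1107 of 8262 symbols. Without culture 4, 4 and 5 did, beside 666 of 8140 symbols. With all 4 cultures and library totals in place of TMM scaling, 16 S phase and 19 G2/M genes did. Genes of the integrated stress response, which includes amino acid synthesis and transport, were likewise highest in culture 3, with 9 of 19 past 2 times, beside 17.6% of all symbols, and 3 without culture 3 and 5 without culture 4. *Asns*, asparagine synthetase, was at 11.3, 12.8, 42.6 and 8.58 CPM. *Txnip*, an inhibitor of thioredoxin and of glucose uptake, had the opposite pattern at 1047, 713, 175 and 1002 CPM, with culture 3 lowest.

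At low levels a further pattern affected symbols of all kinds. Of the 4351 symbols at 1 to 10 CPM, 2759 (63.4%) were highest in culture 4, 2724 (62.6%) were lowest in culture 2, and 1972 (45.3%) had the order from culture 2 through 1 and 3 to 4. At 10 to 100 CPM these shares were 25.8%, 28.6% and 9.78%. Genes of another tissue had this order as well: the 803 olfactory receptor symbols, which encode odorant receptors of the nose, summed to 199, 116, 351 and 571 CPM, and 424, 297, 496 and 581 of them had a count. The stromal list had the same order, at 8.06, 4.02, 19.5 and 32.3 CPM, and the part of this low-level pattern in the differences among well-expressed symbols was not tested.

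Some groups of genes had few or no members past 2 times. None of 18 lysosomal, 10 antigen presentation and 9 mitochondrially encoded genes at 10 CPM or more varied by 2 times, although 1 lysosomal gene did with TMM over all 8 samples. Of all symbols 17.6% did, and of those at 100 to 1000 CPM 11.9%. For lists of 9 or 10 members, a count of 0 is not far from these shares. Of the 79 ribosomal protein genes, *Rps10* and *Rpl10* varied by 2 times, and none without culture 3. *Ctsd*, a lysosomal aspartyl protease, was at 1189, 1221, 898 and 1077 CPM, and *B2m*, the light chain of MHC class I, at 607, 668, 713 and 680.0 CPM. Among symbols at 100 CPM or more, the 10 with the smallest SD were *Dnm2*, *Tmem9*, *Zfp106*, *Dock2*, *Appl1*, *Akap13*, *Cobl*, *Sbno1*, *Capn1* and *Riok1*, with ranges of 1.04 to 1.06 times. *Dnm2*, the dynamin of endocytosis, was at 209.6, 215, 213 and 220.1 CPM, and *Dock2*, a Rac activator of blood cells, at 286, 286, 293 and 299 CPM. Of 19 genes in common use as references for quantitative PCR, 2 varied by 2 times or more, and 1 without culture 3 or culture 4. *Polr2a*, the large subunit of RNA polymerase II, was at 149, 102, 323 and 273 CPM, and the glycolytic *Pgk1* ranged by 2.28 times. *Tbp*, the TATA-binding protein, ranged by 1.16 times and *Actb* by 1.33 times.

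The Regnase family of endoribonucleases, which degrade inflammatory mRNAs and which the study as a whole addresses, was expressed at modest levels at baseline. *Zc3h12a* (Regnase-1) was at 23.9, 34.2, 37.8 and 40.7 CPM in cultures 1 to 4, and *Zc3h12c* (Regnase-3) at 35.1, 42.6, 46 and 44.9 CPM. Culture 1 was lowest for both, with ranges of 1.71 and 1.31 times. Per length they stood at 34.6 ± 7.55 and 18.8 ± 2.03 TPM. *Zc3h12b* and *Zc3h12d* were at 2.05 ± 0.966 and 0.624 ± 0.605 CPM, below the minimum of 10 CPM used for spread.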

How the data were processed

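Gene counts were measured by RNA-seq of 4 BMMC cultures transfected with scrambled RNPs, out of 8 samples. Per the labels and the study's methods, the authors prepared poly(A) libraries, checked reads with FastQC 0.11.9, aligned them to GRCm39 with HISAT2 2.2.1 and assigned them to genes with featureCounts 2.0.1. The methods also name removeBatchEffect for batch effects, but the batches are not given in the sources used here. The deposited counts are whole numbers per gene symbol and were used as unnormalized, and no batch term could be fitted. Strand and multi-mapping settings are not given in the sources used here, so reads of paralogs, overlapping genes and antisense partners cannot be separated.

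From the deposited counts, TMM factors (edgeR 4.0.16, R 4.3.3) of 0.958 to 1.03 were computed over 11867 symbols that passed edgeR's filter on low counts, then CPM, and log2 CPM with a prior count of 2. TPM used the total exon length of GENCODE M39, matched for 22728 symbols (22601 by symbol, 114 by an older symbol and 13 mitochondrial), and 0.788% of counts had no length. Long rare exons lower TPM. Copies of mitochondrial genes were searched with blastn 2.17.0, and tables and plots were made in Python 3.11.15 (numpy 2.4.6, pandas 2.3.3, matplotlib 3.10.9). The scripts were tested on simulated data. Library totals were 19610240 to 33986762 counts, and counting error is given beside the spread.

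No groups were compared, so no test was made and no p-value is given. Samples were grouped by their titles alone. Spread was described for symbols at a mean of 10 CPM or more, by the SD of log2 CPM and the highest over the lowest culture, without an adjustment for the number of symbols. The genes named are the 20 highest by CPM and 10 by TPM, the 20 with the largest SD, the 10 with the smallest SD at 100 CPM or more, of each of 49 gene lists the 3 highest, the 3 with the largest and the 2 with the smallest SD, markers of other cell types, reference and sex-linked genes, and the Regnase family. *Fos*, *Jun*, *Myc*, *Ier3*, *Tnf*, *Il6*, *Il13*, *Gadd45b*, *Ldha*, *Gata1*, *Lyz2*, *Adgre1*, *Mcpt2*, *Mcpt4*, *Mcpt8*, *Prss34* and the 6 mitochondrial genes with a nuclear copy fall outside this rule and were named after their values were seen. The members and the lists were chosen with earlier results of these data known. Alternatives were library totals, DESeq2 1.42.0 size factors, TMM over all 8 samples, no filter before TMM, minimum levels of 1 and 50 CPM, a prior count of 0.5, TPM, and each culture left out in turn.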

Additional observations from a re-analysis of the deposited data

Results flagged for a closer look

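For each gene named, each gene list and each measure of abundance, the gap between the highest or the lowest culture and its nearest neighbour was divided by the range of the 4 cultures, and values above the critical value of Dixon's test for 4 samples were picked out. Chance alone passes this limit in about 1 of 20 groups of 4. Of 278 named genes 10 passed it, of 43 lists 2, and of 15 measures of abundance 1. Of all 8265 symbols at 10 CPM or more, 367 (4.44%) did, so that the numbers for named genes and for lists are near that share.

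Culture 4 was lowest for *Cycs*, the cytochrome c gene (ratio 0.916), at 52.8, 56, 53 and 28 CPM in cultures 1 to 4, for the quinone reductase gene *Nqo1* (0.905), and for *Psmd2*, a proteasome subunit (0.938), at 219, 214, 213 and 142 CPM. It was also lowest for *Slc3a2*, the heavy chain of amino acid transporters (0.867), at 818, 848, 836 and 649 CPM, and for the kinase gene *Prkcb* (0.839), at 692, 704, 705 and 628 CPM. Culture 4 was highest for *Aldoa*, a glycolytic aldolase (0.919), at 809, 851, 840.1 and 1509 CPM, and for the sum of glycolysis and hypoxia response genes (0.932).

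Culture 3 was highest for *Cma2*, a chymase (0.93), at 12.7, 12.3, 20.4 and 12.6 CPM, and for *Atp5pb*, a subunit of ATP synthase (0.888), at 318, 326, 457 and 312 CPM. Culture 2 was lowest for *Ptpn6*, the phosphatase SHP-1 (0.859), at 468, 186, 411 and 449 CPM, and held the lowest share of counts in its 20 highest symbols (0.856), at 15.6, 14.3, 15.6 and 15.8% in cultures 1 to 4. Culture 1 was highest for the receptor gene *Csf2rb2* (0.85), at 8795, 7389, 7442 and 7227 CPM. It was also highest for the sum of the granule proteases (0.992), at 51261, 47984, 48009 and 48004 CPM, a range of 1.07 times. The gap of this sum depended on the scaling. With library totals the sums were 52652, 47111, 46012 and 49667 CPM. With TMM over all 8 samples they were 53573, 53312, 47087 and 46315 CPM.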

How the results depend on the processing

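Of the 12 summary values, the share of the 20 highest symbols changed by less than its SD over the cultures under the other scalings. Each of the other values changed by no more than 1.5 times. These scalings were library totals, DESeq2 size factors, TMM over all 8 samples, and no filter on low counts before TMM. The counts of variable and steady symbols followed the minimum level, which sets how many symbols enter. At a mean of 1 CPM or more, 4568 symbols were past 2 times and 2027 past 4 times, and at 50 CPM or more, 488 and 58, with 427 within 1.2 times. As shares of the symbols entered, 36.2% and 16.1% were past 2 and 4 times at the lower minimum, and 12.7% and 1.5% at the higher. When each culture was left out in turn, 666 to 1296 symbols were past 2 times, 66 to 105 past 4 times and 1303 to 1919 within 1.2 times, as the range over 3 cultures is narrower by construction. The median SD of log2 CPM then ranged from 0.73 to 1.67 for immediate early genes (lowest without culture 1), from 0.56 to 1.06 for cytokines (without culture 1), from 0.24 to 0.49 for glycolysis and hypoxia response (without culture 4), from 0.29 to 0.59 for S phase genes (without culture 4) and from 0.28 to 0.56 for G2/M genes (without culture 3), and from 0.23 to 0.29 over all symbols. The number of symbols at 10 CPM or more ranged from 8140 to 8321. Of the 20 symbols with the largest SD, 18 to 20 were shared under the other scalings and 14 when ranked by the coefficient of variation. A prior count of 0.5, chosen after seeing the data, changed no list median by more than 1.5 times. No paired analysis was possible because no groups were compared and no result comes from a test. Depth limits symbols below 10 CPM: at 1 to 10 CPM the median SD expected from counting alone was 0.20, and 1 library per culture does not separate culture from library.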

Other observations

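Several lists not described above differed in range. Of 16 glucocorticoid-responsive genes at 10 CPM or more, 10 varied by 2 times or more, beside 17.6% of all symbols at this level, and 6 did without culture 3, although *Nr3c1*, which encodes the glucocorticoid receptor, ranged by only 1.24 times. *Tsc22d3*, the leucine zipper gene known as GILZ, was at 114, 38.6, 37 and 128 CPM in cultures 1 to 4, and the clock gene *Per1* at 267, 203, 439.6 and 383 CPM. *Dusp1*, described with the immediate early genes, and *Cdkn1a*, the p21 cell cycle inhibitor at 490.1, 1019, 1333 and 1032 CPM, are members of this list as well. Of 20 targets of the antioxidant factor NRF2, 9 varied by 2 times or more, beside 17.6% of all symbols, and 5 without culture 3 and 4 without culture 4. *Srxn1*, a sulfiredoxin, was at 59.1, 57.1, 255 and 76 CPM, *Gclc*, which starts glutathione synthesis, at 87.7, 121, 94 and 42.2 CPM, and *Nqo1*, a quinone reductase, at 101, 102, 93.3 and 38.7 CPM. *Srxn1* was highest in culture 3, and *Gclc* and *Nqo1* were lowest in culture 4, whereas the ferritin light chain gene *Ftl1*, also on the list, ranged by 1.51 times.

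Of 20 chaperones of the endoplasmic reticulum, 3 varied by 2 times or more, a share near that of all symbols, and 1 did without culture 4 or with library totals and 7 with TMM over all 8 samples. *Calr*, a calcium-binding chaperone, was at 1613, 1771, 2456 and 1151 CPM, and *Dnajb9*, an inducible cochaperone, at 29.9, 47.7, 102 and 98 CPM. Among 17 cytosolic heat shock genes, the inducible cochaperone *Dnajb1* was at 79, 163, 447 and 319 CPM, while the constitutive *Hspa8* was at 1261, 1618, 1729.6 and 1278 CPM. The desaturase genes *Scd1* and *Scd2*, which make monounsaturated fatty acids, were at 136, 47.3, 80.4 and 172 and at 629, 301, 392 and 758 CPM.

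*Neat1* had the widest range of the long non-coding RNAs listed, at 541, 149.5, 242 and 1053 CPM. Among the factors listed as markers of blood progenitors, *Meis1* was steady at 83.7, 85.5, 104 and 103 CPM, whereas the ETS factor *Erg* was at 43.2, 23.1, 94.2 and 136 CPM, lowest in culture 2 and highest in culture 4. Among the platelet markers, the integrin chain *Itgb3* was at 18.2, 4.41, 6.98 and 26.7 CPM. Of 53 replication-dependent histone genes, whose mRNAs carry no poly(A) tail, 1 reached 10 CPM. *Nnt*, a mitochondrial transhydrogenase that is disrupted in the C57BL/6J substrain, was at 0.667, 0.629, 1.81 and 1.97 CPM.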
